A study of Mus musculus with 6 samples.

Results

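The transcripts of 8 matrix metalloproteinase genes were followed: Mmp2, Mmp3, Mmp8, Mmp9, Mmp11, Mmp12, Mmp14 and Mmp19, taken by name from the 26890 gene symbols of a count table of mouse lung. The libraries came from C57BL/6 wild-type mice, 3 given C1q at 20 µg per mouse into the trachea and 3 labelled saline, all taken at day 3. C1q recognises targets for the classical pathway of complement, and the comparison asks how the lung's transcripts differ after it is instilled. Each library was made from digested lung cells kept from the middle layer of a Percoll gradient, and reads the 5′ ends of poly(A) transcripts. The protocol text is the same for all 6 samples and speaks of C1q, so that membership of the saline group is known from a single label. Saline was the sole control, with no other instilled protein beside it. The labels give neither the age or sex of the mice nor whether libraries of a group come from different animals. P-values therefore measure the spread between these samples, which may be technical.

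Matrix metalloproteinases are zinc-dependent enzymes that cut the proteins of the extracellular matrix. Most are released as inactive proenzymes, become active when the propeptide is removed, and are blocked by the tissue inhibitors of metalloproteinases (TIMPs). In the lung they are known from remodelling of alveolar walls, emphysema and fibrosis. The transcript measured here says nothing about how much enzyme is active.

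After C1q, transcripts of the macrophage elastase Mmp12 stood 5.47-fold above saline, those of Mmp2 2.03-fold, of Mmp19 1.86-fold and of Mmp14 1.55-fold, and for each of them the highest saline library lay below the lowest C1q library. None of these differences passed the test once adjusted over all genes, the smallest adjusted p being 0.0905 for Mmp12 (edgeR). Mmp3, Mmp9 and Mmp11 had overlapping groups, and Mmp8, also overlapping, had too few counts to be tested.

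Total counts were 2227619 to 3650793 in the C1q libraries and 2577429 to 2991562 in the saline libraries, so that 3 counts correspond to 0.822 to 1.35 CPM, the count per 1000000 counts of the library, before TMM scaling. Markers of lung epithelium such as Sftpc were abundant in all 6 libraries. Over 10 genes they summed to 38056 to 43434 CPM in C1q and 32008 to 68672 CPM in saline libraries. The highest sum was that of saline replicate 2. Counts were 1 table of whole numbers, scaled by TMM library sizes, and 13473 genes had enough counts to be tested with edgeR's quasi-likelihood test. C1q replicate 2 stood somewhat apart, with 6 genes, none of them a metalloproteinase, in excess there. These were at 10 CPM or more and at least 5 times the highest of the other 5 libraries. There were 0 such genes in the other C1q libraries and 0 to 4 in the saline libraries, with 4 in saline replicate 3. Values without a library are given where leaving it out moved a named gene's fold by more than 1.5 times or ended a call.

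Of the 8 genes, Mmp12, Mmp3 and Mmp8 lie in a cluster of 10 metalloproteinase genes that spans 427 kb of chromosome 9, and they had unlike values after C1q. Mmp12 occupies 7344381 to 7369499, Mmp3 7445822 to 7455975 and Mmp8 7558456 to 7568485, all on the plus strand (GENCODE M21, GRCm38). Because the libraries read transcript starts, the bases in front of these starts are shown for the 3 cluster members. The sequences are RefSeq's on GRCm38.p6, which held such windows for 5 of the 8 genes (Mmp3, Mmp8, Mmp11, Mmp12 and Mmp14). They cover the 250 bases before each RefSeq start. Mmp12 has 2 such starts, and both windows are shown: chr9:7344147-7344396, at the 5′ end of the annotated gene, and chr9:7347124-7347373, inside its span. The others are at chr9:7445572-7445821 for Mmp3 and chr9:7558179-7558428 for Mmp8. Capitals mark 2 sets of letters searched on both strands: TGANTCA, the binding motif of the AP-1 factors, and GGAAGT, found on the other strand in Mmp8 and, at the first of its places, in the outer window of Mmp12. GGAAGT holds the GGAA core of ETS factor sites.
Mmp12, outer start: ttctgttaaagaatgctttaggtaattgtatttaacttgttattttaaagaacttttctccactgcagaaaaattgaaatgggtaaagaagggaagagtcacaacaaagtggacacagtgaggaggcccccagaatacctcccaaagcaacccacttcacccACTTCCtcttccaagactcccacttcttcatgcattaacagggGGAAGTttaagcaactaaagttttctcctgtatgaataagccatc
Mmp12, inner start: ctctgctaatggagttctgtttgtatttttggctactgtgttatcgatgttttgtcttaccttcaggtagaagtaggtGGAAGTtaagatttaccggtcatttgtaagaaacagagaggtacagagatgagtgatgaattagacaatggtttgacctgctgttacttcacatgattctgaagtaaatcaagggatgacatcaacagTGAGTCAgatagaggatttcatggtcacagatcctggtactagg
Mmp3: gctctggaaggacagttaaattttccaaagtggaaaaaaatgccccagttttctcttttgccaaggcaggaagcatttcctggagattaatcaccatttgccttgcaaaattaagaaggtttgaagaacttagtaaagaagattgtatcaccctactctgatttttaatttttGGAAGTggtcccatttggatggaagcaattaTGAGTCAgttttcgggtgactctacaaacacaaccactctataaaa
Mmp8: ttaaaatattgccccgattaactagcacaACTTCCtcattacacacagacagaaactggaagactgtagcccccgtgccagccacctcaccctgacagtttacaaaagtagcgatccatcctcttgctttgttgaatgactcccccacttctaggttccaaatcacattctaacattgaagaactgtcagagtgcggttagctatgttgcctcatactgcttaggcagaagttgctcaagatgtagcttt

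The letters TGANTCA stood 44 to 38 bases before the inner start of Mmp12 and 46 to 40 bases before the start of Mmp3, and were not in the outer window of Mmp12 or the window of Mmp8. The same letters were found in 6.75% of 32851 RefSeq windows of this length, and GGAAGT in 19.7%. The windows of Mmp11 and Mmp14 held neither. A count per gene does not tell which start was used, and a match of letters is a description of the sequence alone.

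Macrophage metalloelastase, the product of Mmp12, cuts elastin and is made mainly by macrophages. Mmp12 had 37, 30 and 21 counts in C1q replicates 1 to 3, or 10.2, 10.6 and 9.48 CPM, against 6, 4 and 5 counts in the saline replicates, or 1.93, 1.62 and 1.87 CPM. All 3 C1q libraries lay above all 3 saline libraries, with a wide gap between the groups. The means were 10.1 ± 0.563 CPM in C1q and 1.81 ± 0.164 CPM in saline (SD, n = 3 each). Fitted over all genes, this was a log2 fold change of 2.45 ± 0.36 (SE), or 5.47-fold with a 95% interval of 3.15 to 9.50. It was the fifth smallest p of all genes tested and did not pass the adjusted threshold of 0.05 (edgeR, adjusted p = 0.0905). The spread between the C1q libraries (5.58%) was below the 18.5% that counting alone gives at such counts, and in saline 9.08% against 44.7%. The SDs of Mmp12 therefore understate its error, and the SE, interval and p of the edgeR fit may do so too. Under the alternatives its SE ran from 0.34 with a filter of 5 CPM in 3 libraries to 0.571 with DESeq2. The gene passed the filter on low counts, 3.55 CPM in at least 3 libraries, through the C1q libraries alone. In bulk samples like these, more cells of a type and more RNA per cell cannot be told apart.

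The other cluster members had other values. Mmp3 encodes stromelysin, which cuts proteoglycans, fibronectin and laminin and activates other proenzymes. It stood at 45.6, 32.1 and 29.8 CPM in C1q libraries and at 43.7, 42.9 and 30.3 CPM in saline libraries. The groups overlapped through most of their range. Its log2 fold change was -0.11 ± 0.21 (edgeR, adjusted p = 0.901), with a 95% interval from 0.668-fold to 1.29-fold, so a difference as large as that of Mmp12 lies outside it. The sign was positive, at 0.00681, without C1q replicate 3.

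Mmp8, the collagenase stored in neutrophil granules, was at low counts, 29, 10 and 11 in C1q and 5, 9 and 4 in saline libraries. In CPM these were 8.02, 3.53 and 4.97 in C1q against 1.61, 3.64 and 1.49 in saline. The groups touched, C1q replicate 2 lying just below saline replicate 2. With 2 libraries above the filter, both of them C1q, Mmp8 was not among the genes tested. In a fit of every gene with a count, its log2 fold change was 1.35 ± 0.54 (edgeR, adjusted p = 0.317). It passed the filter in 5 of the 6 fits with 1 library left out, at 1.12 to 1.83, and was not called in any of these 5 (edgeR, adjusted p = 0.253 to 0.768). Of the cluster genes that are not among the 8, Mmp10, Mmp13, Mmp20 and Mmp27 had at most 11 counts in any library and were not tested. Mmp13, another collagenase, had 1, 4 and 0 counts in C1q libraries and 3, 5 and 4 in saline libraries. Mmp1a, Mmp1b and Mmp7 were not among the gene symbols listed.

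**Figure D1:**
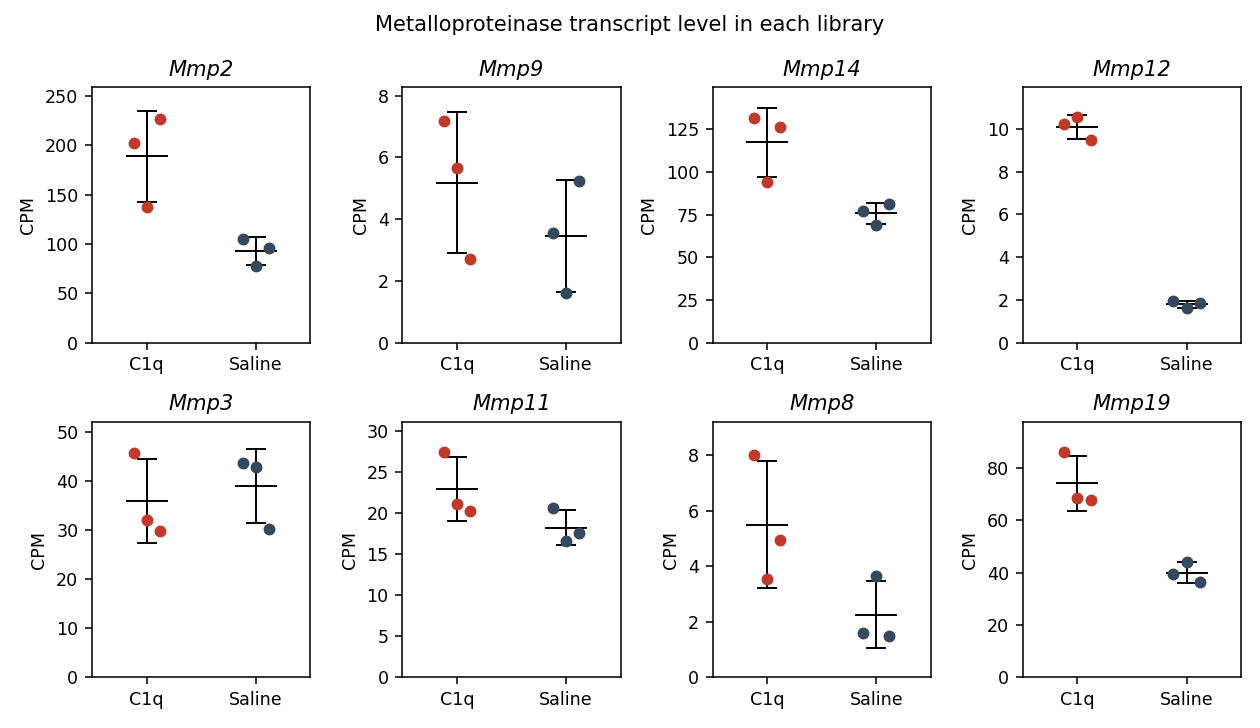
Transcript level in CPM (vertical axes from 0) of each of the 8 metalloproteinases, with 1 point per library, C1q libraries left and saline libraries right, and black bars for the mean ± SD of 3 libraries. The groups are apart for Mmp2, Mmp14, Mmp12 and Mmp19 and overlap for Mmp9, Mmp3, Mmp11 and Mmp8.

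The gelatinases are the metalloproteinases that cut denatured collagen and the type IV collagen of basement membranes. Mmp2, the gelatinase made largely by fibroblasts, lies on chromosome 8 from 92827291 to 92853420. It stood at 202, 138 and 227 CPM in C1q libraries, against 105, 77.7 and 95.6 CPM in saline libraries. Every C1q library was above every saline library, and C1q replicate 2 was the nearest to the saline range. The means were 189 ± 46.0 CPM in C1q and 92.9 ± 14.1 CPM in saline (SD, n = 3 each). The log2 fold change was 1.02 ± 0.20, or 2.03-fold with a 95% interval of 1.48 to 2.77, and did not pass (edgeR, adjusted p = 0.245). Without C1q replicate 2 it was 1.21.

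Mmp9, the gelatinase of neutrophils and macrophages, lies on chromosome 2 from 164940780 to 164955850. It had 26, 16 and 6 counts in C1q libraries and 11, 4 and 14 in saline libraries. In CPM these were 7.19, 5.64 and 2.71 in C1q and 3.54, 1.62 and 5.23 in saline, and the groups overlapped. The log2 fold change of 0.61 ± 0.50 did not pass (edgeR, adjusted p = 0.739), and its 95% interval ran from 0.711-fold to 3.26-fold. At this depth neither the lack of a change nor a doubling of Mmp9 can be told from the data.

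The membrane-bound enzyme of the set is encoded by Mmp14 on chromosome 14, from 54431612 to 54445364. It cuts fibrillar collagen at the cell surface and, together with TIMP2, activates the proenzyme of MMP2. Mmp14 stood at 132, 94.2 and 126 CPM in C1q libraries, against 77.2, 69.2 and 81.1 CPM in saline libraries, with no overlap. As for Mmp2, C1q replicate 2 was the lowest of its group. The log2 fold change was 0.63 ± 0.17, or 1.55-fold with a 95% interval of 1.20 to 2.00 (edgeR, adjusted p = 0.410).

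Mmp19 encodes a secreted enzyme that acts on basement membrane proteins and lies on chromosome 10 from 128790910 to 128800824. It stood at 86.0, 68.4 and 67.7 CPM in C1q libraries, against 39.5, 44.1 and 36.2 CPM in saline libraries. The lowest C1q library was well above the highest saline library. The log2 fold change was 0.89 ± 0.16, or 1.86-fold with a 95% interval of 1.45 to 2.39 (edgeR, adjusted p = 0.231). The annotated span of Mmp19 overlaps that of Tmem198b on the other strand, whose groups overlapped at 12.7 ± 3.52 CPM in C1q and 12.4 ± 1.17 CPM in saline (SD, n = 3 each).

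Mmp11 encodes stromelysin-3, which is activated inside the cell by furin and is known from stromal fibroblasts. It lies on chromosome 10 from 75923222 to 75936496. It stood at 27.4, 21.2 and 20.3 CPM in C1q libraries and at 20.6, 16.6 and 17.6 CPM in saline libraries. The groups met at their edges, saline replicate 1 lying above C1q replicate 3. The log2 fold change was 0.34 ± 0.21 (edgeR, adjusted p = 0.669). Its span overlaps that of Chchd10 on the other strand, which averaged 141 ± 6.47 CPM in C1q and 185 ± 64.6 CPM in saline libraries (SD, n = 3 each), a log2 fold change of -0.39 ± 0.23. The sources used here do not say how the counting treated strand, so reads of these overlapping genes cannot be told apart. Mmp12 overlaps Mmp1b in the same way, at its far end.

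Of the 8 genes, 7 were tested, and 0 passed the adjusted threshold. Over all genes, 0.0297% were called higher and 0% lower by the same rule. The 4 genes without overlap, Mmp2, Mmp12, Mmp14 and Mmp19, had all 3 C1q libraries above all saline libraries, as did 8.12% of all genes tested. The same 4 had an unadjusted p under 0.05 with a higher C1q mean, which 4.22% of all genes did. The median log2 fold change of the 7 was 0.63, against -0.01 over all genes tested, and 6 of the 7 were positive, against 48.2%. Of all genes tested, 0.111% had a higher log2 fold change than Mmp12, 0.802% than Mmp2, 1.09% than Mmp19, 2.95% than Mmp14, 3.19% than Mmp9, 10.7% than Mmp11 and 62.6% than Mmp3. These counts describe genes chosen with earlier results of the data known, and Mmp12 had to differ to be tested at all. In this fit the interval of Mmp12 lay above those of Mmp2, Mmp19, Mmp14, Mmp11 and Mmp3. Its SE was larger in other fits, up to 0.571 with DESeq2, so this order is given for this fit only. The differences between the members were not tested.

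**Figure D2:**
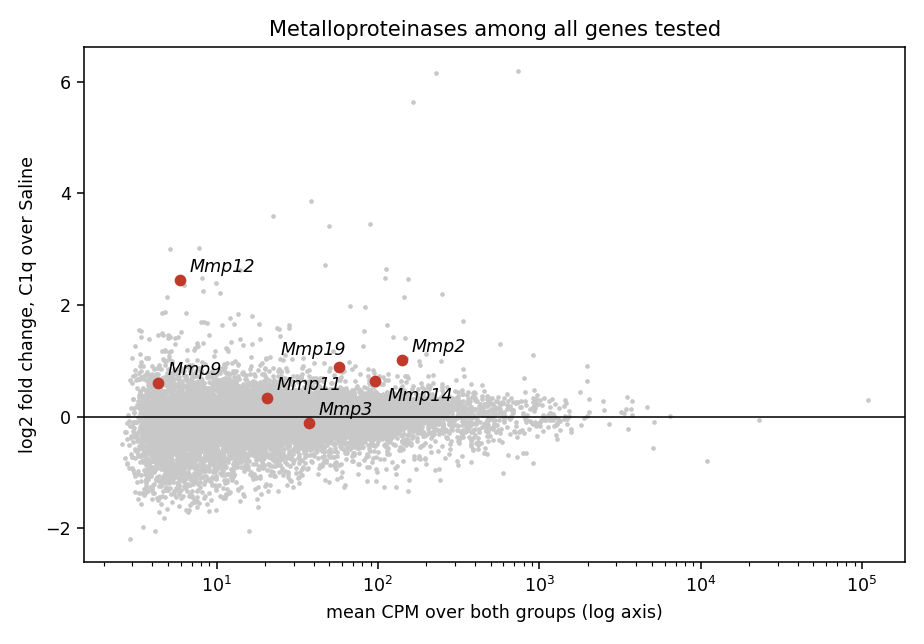
Log2 fold change of C1q over saline (vertical axis) against the mean CPM over both groups (horizontal log axis) for the 13473 genes tested in grey, with the 7 tested metalloproteinases in red. Mmp12 sits at 2.45 among genes of low level, Mmp2, Mmp19 and Mmp14 between 0.63 and 1.02, and Mmp3 at -0.11.

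The number of calls depended on the tool and the filter. With other scalings (RLE, upper-quartile or none), a filter of 5 CPM in 3 libraries, or limma-voom, 0 members were called. Mmp12 had an adjusted p of 0.0571 to 0.106 in these edgeR fits and of 0.182 with limma-voom. DESeq2 called Mmp2 (adjusted p = 0.00596), Mmp12 (0.0120) and Mmp19 (0.0417) higher, 3 of 7 where it called 0.23% of all genes higher. When every gene with a count was fitted, edgeR called those 3 and Mmp14, 4 of 8, where it called 0.588% of all genes higher. With 1 library left out at a time, the adjusted p of Mmp12 was 0.0541 to 0.624 and its log2 fold change 2.39 to 2.50. With 1 surrogate variable in the edgeR fit, an alternative chosen after seeing the data, Mmp2, Mmp12, Mmp14 and Mmp19 were called, and 1% of all genes were called higher. With a library left out, the log2 fold change of Mmp2 was 0.88 to 1.21, for Mmp19 0.77 to 0.98 and for Mmp14 0.54 to 0.77.

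**Figure D3:**
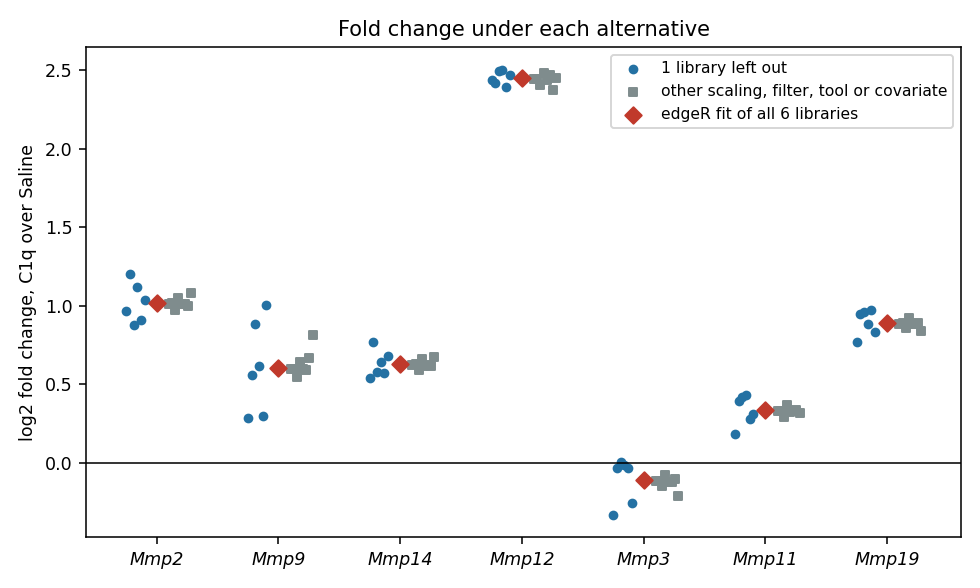
Log2 fold change of C1q over saline (vertical axis) for each of the 7 tested metalloproteinases in the edgeR fit of all 6 libraries (red diamonds), with 1 library left out (blue points) and under other scaling, filter, tool or covariate (grey squares). Mmp12 stays between 2.37 and 2.50, Mmp9 spreads from 0.29 to 1.01 with libraries left out, and Mmp3 lies on both sides of 0.

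The members varied together to different degrees. Over the 6 libraries, Pearson's r of log2 CPM was 0.98 between Mmp2 and Mmp14, and 0.95 between Mmp12 and Mmp19. It was 0.89 between Mmp2 and Mmp12, and -0.20 between Mmp2 and Mmp3. These values include the difference between the groups and share library scaling, and are given as a description. Among 10341 other tested genes at 10 CPM or more, the pattern most like that of Mmp2 belonged to Atp6v1a (r = 0.997), Fstl1 (0.990) and C1s1 (0.984). For Mmp14 it was Igf1 (0.995), S100a14 (0.991) and Cd44 (0.990), and for Mmp19 Atp6ap2 (0.997), Ssr3 (0.991) and Lilrb4a (0.988). For Mmp12 it was Sdcbp (0.987), Ell2 (0.987) and Mfap3l (0.986). Mmp11 was most like Slc11a1 (0.992), Fcrla (0.991) and Faf1 (0.986), and Mmp3 most like Slc25a17 (0.995), Orc6 (0.989) and Sharpin (0.988). These are the highest of many values over 6 libraries, and were as high for Mmp3, whose groups overlapped.

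Of 15 further metalloproteinase genes, 11 were listed and 3 tested, of which 0 passed. Mmp23 had a log2 fold change of 0.64 ± 0.26, with 23.7 ± 6.64 CPM in C1q and 15.4 ± 3.78 CPM in saline libraries (SD, n = 3 each) and overlapping groups. Mmp15, a membrane-bound relative of Mmp14, was at -0.06 ± 0.19. Mmp28, known from epithelium, was at -0.38 ± 0.28, with all C1q libraries below all saline libraries, as for 5.96% of all genes. Their adjusted p (edgeR) lay between 0.602 and 0.947, and the summed level of the 11 genes overlapped, at 91.2 to 113 CPM in C1q and 84.5 to 117 CPM in saline libraries.

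Among 8 tested inhibitor genes, 1 passed, where 0.0297% of all genes tested were called higher. Timp1, which blocks most secreted metalloproteinases, rose to 35.8 ± 0.725 CPM in C1q, against 11.8 ± 2.1 CPM in saline libraries (SD, n = 3 each; edgeR, adjusted p = 0.0316). That call was lost without C1q replicate 1, 2 or 3 (adjusted p = 0.297, 0.109 and 0.0704) or saline replicate 1 (0.471). Tfpi2, a serine protease inhibitor, was at a log2 fold change of 1.23 ± 0.33 and Serpine2 at 0.63 ± 0.18, neither passing. Timp2, which also takes part in the activation of MMP2, was at 0.14 ± 0.14, Timp3 at -0.11 ± 0.15 and the membrane-anchored inhibitor Reck at -0.32 ± 0.18.

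Counts were also set against those of Timp1 in the same library. Because Timp1 itself rose, 95.7% of all genes tested were lower per count of Timp1 in every C1q library than in every saline library, and 0.0297% were higher. Mmp12 had 0.282, 0.303 and 0.2625 counts per count of Timp1 in C1q libraries, against 0.171, 0.114 and 0.185 in saline libraries, and was higher in every C1q library. Mmp3, Mmp11, Mmp14 and Mmp19 were lower in every C1q library, as nearly all genes were. For Mmp14 the ratio was 3.63, 2.70 and 3.50 in C1q against 6.86, 4.89 and 8.04 in saline libraries. For Mmp3 it was 0.825 to 1.26 in C1q and 3.00 to 3.89 in saline. Mmp2 overlapped, at 3.94 to 6.28 in C1q and 5.49 to 9.48 in saline, as did Mmp8 and Mmp9. Against Timp2, Mmp2 had 0.301 to 0.508 counts per count of Timp2 in C1q libraries and 0.186 to 0.248 in saline libraries. Mmp2, Mmp12 and Mmp19 were higher on this scale in every C1q library, as were 3.1% of all genes tested. Mmp14 overlapped, at 0.206 to 0.288 in C1q and 0.165 to 0.210 in saline, as did Mmp3, Mmp8, Mmp9 and Mmp11. The ratios are read across libraries for the same pair of genes, and compare no levels between genes.

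**Figure D4:**
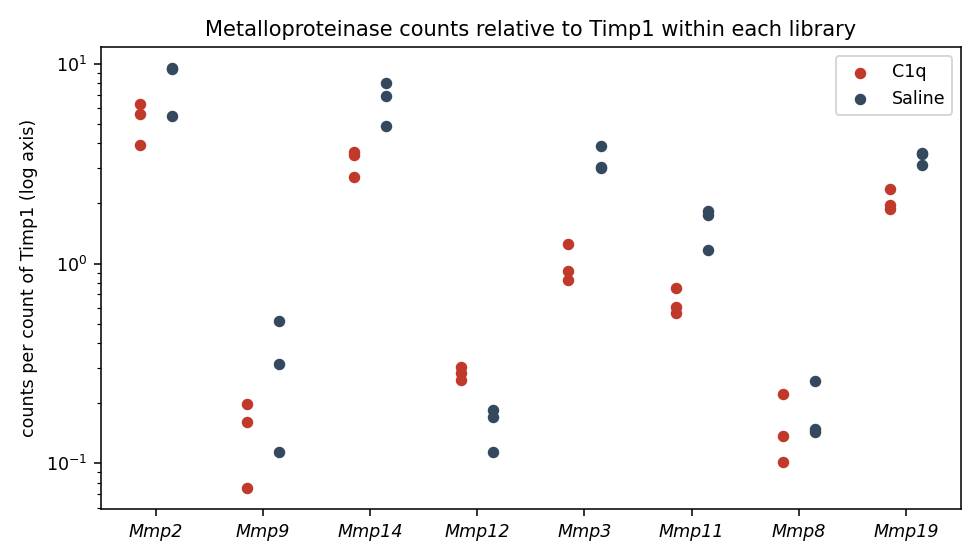
Counts of each metalloproteinase per count of Timp1 in the same library (vertical log axis), with C1q libraries in red on the left and saline libraries in blue on the right of each pair. Mmp12 is higher in all C1q libraries, Mmp14, Mmp3, Mmp11 and Mmp19 are lower in all of them, like 95.7% of all genes tested, and Mmp2, Mmp9 and Mmp8 overlap.

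**Figure D5:**
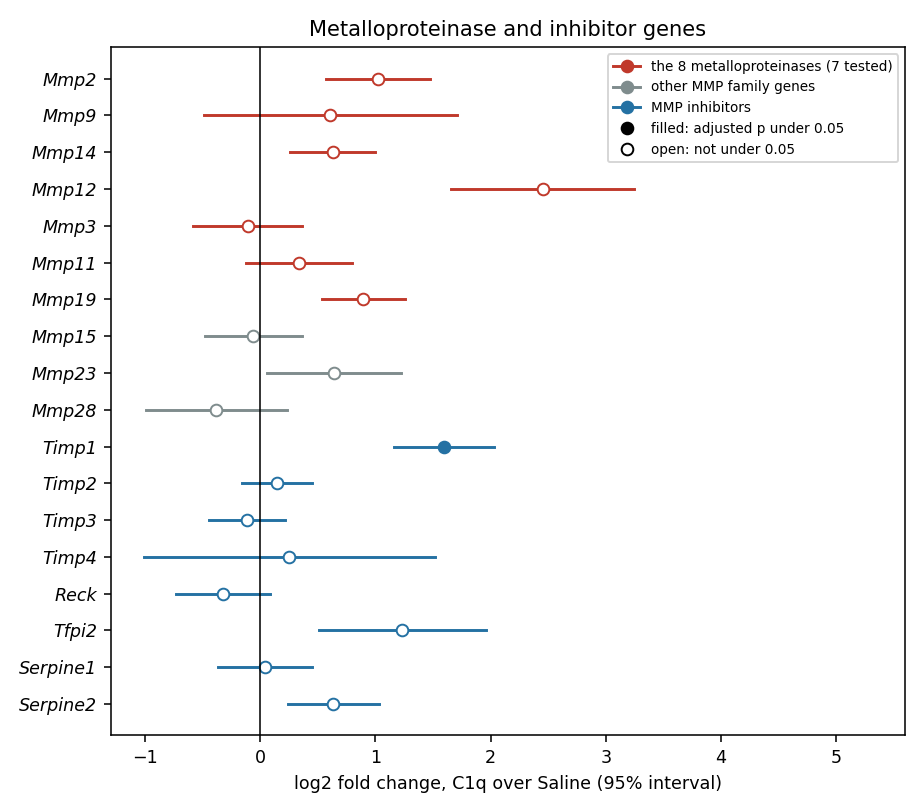
Log2 fold change of C1q over saline (horizontal axis) with 95% intervals for the tested metalloproteinases of the set (red), other genes of the family (grey) and inhibitor genes (blue), where a filled circle marks an adjusted p under 0.05. Timp1 alone of these genes is filled, at 1.60.

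Genes that act around the enzymes gave few calls. Of 6 tested genes for activators of the proenzymes, 0 passed and 6 had a positive log2 fold change, against 48.2% of all genes tested. Those of smallest p were the urokinase receptor Plaur at 0.41 ± 0.15, the plasminogen activator Plat at 0.30 ± 0.14 and urokinase, Plau, at 0.97 ± 0.47. Plau rested on C1q replicate 2: it stood at 9.13, 46.6 and 20.3 CPM in C1q libraries and at 13.2, 13.0 and 12.3 CPM in saline libraries, and without that library its log2 fold change was 0.16. Of 5 tested binding partners 0 passed, with the MMP9 anchor Cd44 at 0.31 ± 0.14, Lcn2, whose product binds MMP9, at 0.33 ± 0.24 and Bsg, known as an inducer of metalloproteinases, at 0.21 ± 0.16. Of 13 matrix substrate genes 1 passed, elastin (Eln) at 1.72 ± 0.18 (edgeR, adjusted p = 0.00723), the call being lost without C1q replicate 1 (0.0871) or saline replicate 1 (0.126). All 13 were positive with a median of 0.73, Col1a2 being at 0.86 ± 0.16 and Col5a1 at 0.84 ± 0.16. Over all genes tested the median was -0.01, 48.2% were positive and 0.0297% were called higher.

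Signals known to induce metalloproteinase genes were tested for 9 genes, and 0 passed. Il6 was at 1.00 ± 0.15, Il1b at 0.77 ± 0.15 and the EGF receptor ligand Ereg at 2.15 ± 0.45. Ereg had 8, 4 and 3 counts in saline libraries, each below the filter on low counts. Like Mmp12, it was tested through the C1q libraries alone. Of the 9, 6 had all C1q libraries above saline, against 8.12% of all genes tested. Ereg is 1 of these 6, and its separation is no separate support. The groups overlapped for Areg at 0.13 ± 0.30, Hbegf at -0.05 ± 0.15 and Tnf at -0.21 ± 0.35. Of 12 tested AP-1 and ETS factor genes 0 passed, 6 were positive and 6 negative, and the median was -0.01. Fosl1 was at 0.76 ± 0.29, Jun at -0.33 ± 0.15 and Spi1, a myeloid ETS factor, at 0.42 ± 0.20.

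Cell type markers were read beside the members that these cells are known to make. For fibroblasts, 12 of 13 markers were tested, 0 passed, 6 had all C1q libraries above saline and 1 had all below. Over all genes tested the shares were 8.12% above and 5.96% below. By p, Pi16 at 0.66 ± 0.21, Clec3b at 0.53 ± 0.17 and Dpt at 0.48 ± 0.16 came first. The one below was Pdgfrb, at -0.41 ± 0.17, and Pdgfra, at 0.08 ± 0.15, had overlapping groups. The summed level was 4879 to 6093 CPM in C1q and 4582 to 6533 CPM in saline libraries, of which Inmt made up 53.2% to 61.8% and 58.4% to 72.1%. Without Inmt, a choice made after seeing its level, the sum was 2215 to 2384 CPM in C1q and 1820 to 2044 CPM in saline. Npnt was the largest gene of that sum, at 1024 ± 71.7 CPM in C1q and 880 ± 81.4 CPM in saline (SD, n = 3 each). Per 1000 CPM of that sum Mmp2 averaged 82.8 ± 22.1 CPM in C1q and 48.2 ± 4.78 in saline (SD, n = 3 each), with no overlap, and Mmp19 32.4 ± 5.59 and 20.9 ± 2.93, again with no overlap. For Mmp14 the values were 51.4 ± 10.5 in C1q and 39.4 ± 2.69 in saline, with overlap. The share of all genes tested without overlap on this scale was not computed.

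Per 1000 CPM of the 13 matrix substrate genes, the groups overlapped for each of these 3 enzymes: Mmp2 was at 37.0 ± 5.52 in C1q and 30.7 ± 4.2 in saline, Mmp14 at 23.2 ± 1.84 and 25.1 ± 0.84, and Mmp19 at 14.7 ± 1.98 and 13.3 ± 2.1 (SD, n = 3 each). The substrate sum moved with the members, at 5284, 4434 and 5414 CPM in C1q replicates 1 to 3 and 2861 to 3226 CPM in saline libraries. As with Mmp2 and Mmp14, C1q replicate 2 was the lowest of its group. Its part in the result was not tested.

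For alveolar macrophages, 13 of 14 markers were listed and tested, 0 passed, and the summed level overlapped at 820 to 1094 CPM in C1q and 681 to 1136 CPM in saline libraries. By p, Atp6v0d2 came first at 0.53 ± 0.19, followed by Plet1 at 0.38 ± 0.15 and Mrc1 at 0.34 ± 0.15, while Siglecf was at 0.04 ± 0.21 and Marco at -0.13 ± 0.28. For interstitial macrophages and monocytes, 11 of 12 were tested, 0 passed, 5 lay above saline in all C1q libraries and 1 below. Over all genes tested the shares were 8.12% above and 5.96% below. The marker sums were 1051 to 1193 CPM in C1q and 776 to 1126 CPM in saline. By p, C1qa came first at 1.05 ± 0.21, then C1qc at 0.87 ± 0.25 and Adgre1, the F4/80 antigen, at 0.77 ± 0.26. The one below was Cx3cr1, a chemokine receptor, at -0.49 ± 0.27, while Ly6c2 was at 0.07 ± 0.20 and Apoe at 0.11 ± 0.18. Per 1000 CPM of the alveolar macrophage sum Mmp12 averaged 10.3 ± 1.15 CPM in C1q and 2.08 ± 0.659 in saline. Per 1000 CPM of the interstitial sum it averaged 8.97 ± 0.374 in C1q and 1.90 ± 0.440 in saline (SD, n = 3 each). The C1q mean over the saline mean was 4.94 and 4.71 on these scales, with no overlap of the groups. Mmp12 passed the filter on low counts through the C1q libraries alone, so this separation is no separate support. The share of all genes without overlap on these scales was not computed.

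For neutrophils, 9 of 14 markers were tested, 0 passed, and sums were 149 to 226 CPM in C1q and 140 to 187 CPM in saline libraries. Il1r2 was at 0.59 ± 0.24, Retnlg at 0.63 ± 0.29 and Ltf at 0.64 ± 0.38 (1.30 without saline replicate 1). The median of the 9 tested was 0.14, and 8 of them, Retnlg and Ltf included, had overlapping groups. The defining marker Ly6g was at or near 0 in every library. Per 1000 CPM of that sum Mmp8 was at 35.5, 18.3 and 33.4 in C1q libraries and at 11.4, 19.5 and 10.7 in saline libraries, with overlap. Mmp9 averaged 26.4 ± 7.20 in C1q and 23.7 ± 14.4 in saline (SD, n = 3 each).

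In the other lists, too, 0 genes passed. Smooth muscle and pericyte genes summed to 706 to 880 CPM in C1q and 763 to 933 CPM in saline libraries, with the pericyte genes Higd1b at -0.87 ± 0.25, Cox4i2 at -0.60 ± 0.20 and Kcnj8 at 0.67 ± 0.31. Mesothelial genes summed to 214 to 327 CPM in C1q and 174 to 266 CPM in saline, with Msln at 1.03 ± 0.32, Upk3b at -0.89 ± 0.37 and Krt19 at 0.31 ± 0.20. Endothelial genes summed to 3242 to 4054 CPM in C1q and 3798 to 4342 CPM in saline, with Ramp2 at -0.43 ± 0.21, Kdr at -0.33 ± 0.17 and Cdh5 at -0.27 ± 0.16. In the epithelial list Hopx was at -0.75 ± 0.27, Cdh1 at 0.35 ± 0.14 and Scgb1a1 at -0.79 ± 0.36. Haemoglobin genes summed to 37.9 to 189 CPM in C1q and 117 to 271 CPM in saline. Hba-a1 was at -0.97 ± 0.46, Hbb-bs at -0.73 ± 0.48 and Hba-a2 at -0.70 ± 0.46, or -1.77, -1.54 and -1.46 without C1q replicate 1. Cell cycle genes summed to 168, 60.3 and 160 CPM in C1q replicates 1 to 3 and to 35.2 to 60.9 CPM in saline libraries, so C1q replicate 2 was within the saline range there. Ccna2 was at 2.25 ± 0.52 (3.03 without saline replicate 3), Top2a at 1.66 ± 0.42 and Cdk1 at 2.49 ± 0.66 (1.75 without C1q replicate 1 and 3.08 without saline replicate 3). The part of any of these cell types in the values of the metalloproteinases was not tested.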

How the data were processed

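The counts deposited by the authors are whole numbers per gene symbol and sample, without normalization, per the file headers. Trimming and alignment tools were cutadapt 2.1.0 and Bowtie2 2.4.2, with GRCm38 as build, per the submitters' processing notes. How counts were made from alignments, including strand and unique molecules, is not stated there.

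Samples were grouped by treatment label and numbered in order of deposition, and these numbers pair nothing. The labels give no batch. Counting noise did not account for the differences within any of the 15 pairs of libraries (chi-square per degree of freedom 4.74 to 14.6). After filterByExpr and TMM scaling, edgeR 4.0.16 was run (glmQLFit and glmQLFTest after estimateDisp, two-sided) over all 13473 genes kept, with Benjamini-Hochberg adjustment and a threshold of 0.05. The common biological coefficient of variation was 19.5%. Standard errors were derived from the F statistic of each gene. CPM use TMM library sizes, and correlations log2 CPM with a prior count of 2. Counting intervals and the floor of 3 counts cover counting error only.

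The members and the gene lists were chosen with earlier results of these data known. The genes named were all 8 members, every called gene of a list, the 3 genes of each list with the smallest p and, for each member at 5 CPM or more, the 3 genes of highest Pearson r. Other genes were named after their values were seen. Alternatives used RLE, upper-quartile or no scaling, DESeq2 1.42.0, limma-voom (limma 3.58.1), no filter or 5 CPM in 3 libraries, each library left out, and 1 surrogate variable (sva 3.50.0). Positions are from GENCODE M21 and sequences from RefSeq.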

Additional observations from a re-analysis of the deposited data

How the results depend on the processing

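The edgeR fit called 4 of all genes and 0 of the 7 tested metalloproteinases. With RLE, upper-quartile or no scaling, a filter of 5 CPM in 3 libraries, or limma-voom, these were 3 or 4 and 0. With no filter on low counts these were 373 and 4, with DESeq2 32 and 3, and with 1 surrogate variable, an alternative chosen after seeing the data, 360 and 4. The cause was not tested. With 1 library left out, 0 to 10 of all genes and 0 to 0 of the metalloproteinases were called. A metalloproteinase was called lower in 0 of these fits. Mmp2, Mmp9, Mmp11, Mmp12, Mmp14 and Mmp19 had a positive log2 fold change in all 14 alternatives. Mmp3 ranged from -0.33 to 0.00681 with 1 library left out, being positive without C1q replicate 3. No scaling moved the median of all genes by more than the 0.04 of library size alone. No paired analysis was possible because the groups share no replicate numbers in the labels. At these depths Mmp8, Mmp9 and Mmp12 rest on 4 to 37 counts per library, where changes of the first pair could not be told from none.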
